A study of Mus musculus with 25 samples.

Results

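The collagen chains were taken as every gene whose symbol in the probe annotation reads Col, a number, a and a number, from probe sets with 1 symbol. This gave 42 genes of 18194 measured, carried by 82 probe sets. They were measured with oligonucleotide arrays in whole salivary glands from male mice of the strain C57BL/6.NOD-Aec1Aec2. The mice were 4, 8, 12, 16 or 20 weeks old, with 5 mice at each age and 1 array for each mouse. Every mouse carried the Aec1 (Idd3) and Aec2 (Idd5) intervals of the NOD mouse on a C57BL/6 background, which together give a disease like Sjögren's syndrome, and none had received a treatment. The submitters describe the ages as pre-disease at 4 weeks, early pre-clinical at 8 weeks, first leukocyte entry at 12 weeks, early clinical autoimmunity at 16 weeks and early loss of secretion at 20 weeks. No C57BL/6 mice are among the 25 arrays, so growth of the gland with age and stage of disease cannot be told apart. Each RNA came from 1 lobe that held submandibular, sublingual and parotid gland without the lymph nodes, and the 5 mice of an age came from at least 2 litters.

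Collagens are the main structural proteins of the space between cells. Each molecule is a helix of alpha chains, each chain from its own gene, that is folded in the endoplasmic reticulum of fibroblasts and other cells, secreted, trimmed and cross-linked. Fibrillar collagens form the banded fibres of stroma, network collagens form the sheet of basement membranes under epithelium and around vessels, and type VI chains form beaded microfibrils between them. In a salivary gland the fibres lie in the septa and capsule, and the basement membrane surrounds acini and ducts. The other groups are the fibril-associated collagens with interrupted helices (FACIT), the basement membrane zone chains, the short chains and the transmembrane chains. By these classes the 42 genes were 11 fibrillar, 6 basement membrane network, 5 microfibril, 9 FACIT, 3 basement membrane zone, 3 short and 4 transmembrane chains and Col26a1.

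Values are on the log2 scale, as deposited, and a gene's value is the mean of its expressed probe sets. A probe set was called expressed where its mean over the 25 arrays was over 3.27, the median of all probe sets. By this rule 30 chains were expressed and 12 were dim. The tissue labels were borne out by saliva genes, with Prol1 at 15.44 ± 0.040 and Klk1 at 14.98 ± 0.094 at 4 weeks (mean ± SD, n = 5). The array of 20-week mouse 3 stood apart, with a median correlation of 0.887 with its own age, against 0.973 or more for the others. Its 3′ minus 5′ difference for the Gapdh control probe sets was 3.87, against 0.05 to 1.68 on the others. The amylase gene Amy1, a product of the parotid gland, was 9.93 and 9.80 in 16-week mice 2 and 5 and 15.66 to 15.75 in the other 3, against 8.42 in 4-week mouse 2 and 14.89 to 15.86 in the other mice of that age. Its part in the collagen values was not tested.

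Part of the collagen chains fell at every later age, most deeply those of the stromal fibre, and no chain was called higher. By limma over all 25 arrays, with p-values adjusted over all 18194 genes, 9 chains fell at 8 weeks, 12 at 12 weeks, 14 at 16 weeks and 12 at 20 weeks. Over all genes this call was made for 0.78%, 1.36%, 1.68% and 1.52%. No chain passed in the upward direction at any of the 4 ages, where 1.48%, 5.66%, 1.71% and 1.14% of all genes did. At an unadjusted p under 0.05, 1 chain was higher at 8 weeks, 0 at 12 and 16 weeks and 1 at 20 weeks, where 10%, 16.1%, 8.37% and 7.12% of all genes were. In all, 15 chains fell at 1 age or more, and 9 fell at all 4 ages: Col1a1, Col1a2, Col3a1, Col5a1, Col5a2, Col5a3, Col6a2, Col6a3 and Col15a1. All 15 were among the 30 expressed chains, and 15 expressed chains passed at no age. In whole tissue, fewer cells of a type and less RNA per cell cannot be told apart.

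Over the 42 chains the median log2 change was -0.15, -0.20, -0.16 and -0.07 at 8, 12, 16 and 20 weeks. Over all genes it was -0.03, -0.03, -0.02 and 0.04. Over the 30 expressed chains it was -0.50, -0.78, -0.92 and -0.67, against 0.10, 0.14, 0.02 and 0.06 over all expressed genes. The classes differed in the counts of chains that fell, and also in how many chains were expressed. Expressed were 9 of 11 fibrillar, 4 of 5 microfibril, 5 of 6 network and 3 of 3 zone chains. Among the FACIT, short and transmembrane chains it was 6 of 9, 1 of 3 and 2 of 4, and Col26a1 was dim. The counts and medians by class include the dim chains. Fibrillar chains fell in 6, 7, 6 and 6 of 11 cases at 8, 12, 16 and 20 weeks, and microfibril chains in 2, 3, 3 and 3 of 5. Basement membrane network chains fell in 0, 1, 3 and 2 of 6. The basement membrane zone had 1 of 3 at each age, the FACIT group 1 of 9 at 16 weeks alone, and the short, transmembrane and remaining chains none. Median changes at 16 weeks were -1.46 for the fibrillar, -1.33 for the microfibril, -0.78 for the network and -0.03 for the FACIT chains. As a rule on the shape over age, a B-statistic (the log odds of a polynomial trend) over 1.5 was reached by 12 chains and by 1.92% of all genes. These 12 were the 9 that fell at all ages together with Col4a2, Col4a5 and Col6a1.

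**Figure D1:**
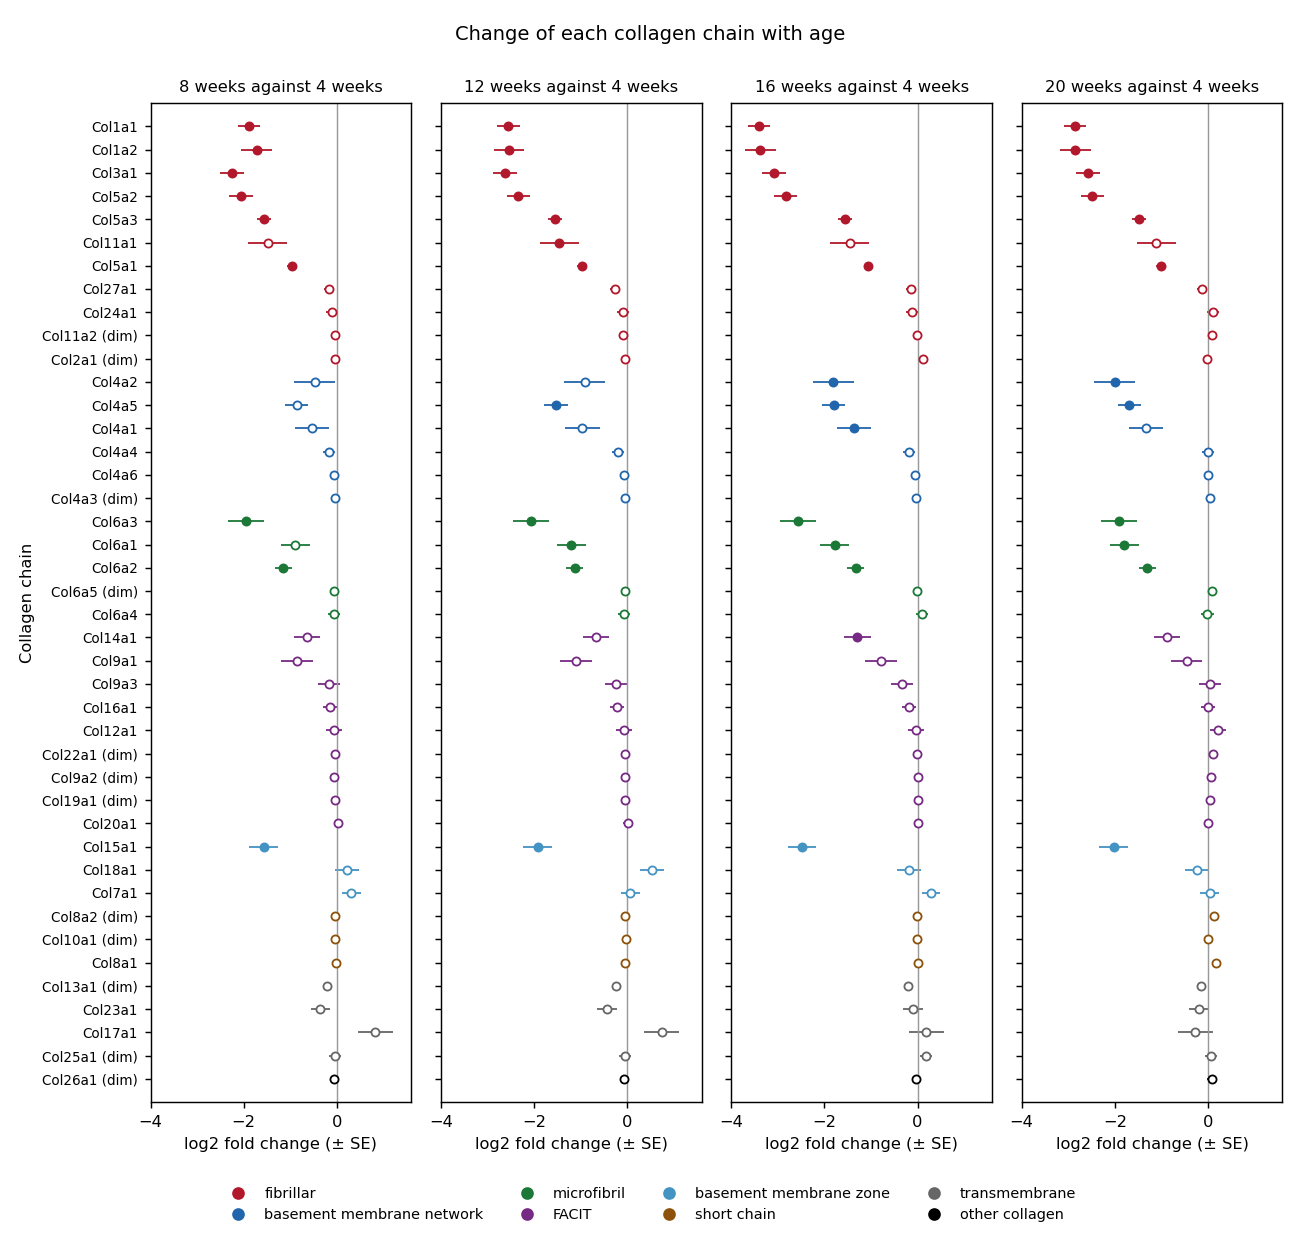
Log2 fold change of each of the 42 collagen chains at 8, 12, 16 and 20 weeks against 4 weeks, with the standard error of the fit as a bar; filled points have an adjusted p under 0.05, colours give the class, and dim chains have no expressed probe set. Filled points number 9, 12, 14 and 12 from left to right and all lie below 0, most of them in the fibrillar, network and microfibril rows.

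The deepest fall was in the chains of the common stromal fibre. Col1a1 encodes the alpha 1 chain of type I collagen, the chief collagen of connective tissue. At 16 weeks its log2 values in mice 1 to 5 were 6.04, 4.88, 5.50, 5.15 and 5.88, against 8.92, 9.26, 9.04, 8.63 and 8.60 at 4 weeks. No 16-week mouse came near the lowest 4-week mouse. The change was -3.40 ± 0.24 (SE), a 10.5-fold lower level, with an adjusted p of 2.4e-08 by limma. The means over the 5 ages were 8.89, 7.0, 6.34, 5.49 and 6.04, so the lowest was at 16 weeks, and the 5 mice at each later age all lay below the 5 at 4 weeks.

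Col1a2 encodes the partner chain of type I collagen. Its values at 16 weeks were 7.35, 5.85, 6.20, 5.84 and 7.40, against 10.08, 10.36, 10.15, 9.69 and 9.27 at 4 weeks. The 16-week mice formed 2 clusters, with mice 1 and 5 above the other 3, and both clusters were below every 4-week mouse. The change was -3.38 ± 0.33, with an adjusted p of 1.4e-06. Each of Col1a1 and Col1a2 had 2 expressed probe sets, and these fell by unequal amounts, with mean differences of -4.02 and -2.77 for Col1a1 and -4.01 and -2.75 for Col1a2. The size of each gene's fall therefore depends on how its probe sets are joined, and at 8 weeks the brightest Col1a2 probe set alone gave -1.34 with an adjusted p of 0.141, against -1.72 and 0.00716 for the mean of both.

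Col3a1 encodes type III collagen, which mixes with type I in fibres of soft organs. It was 6.92, 5.77, 6.12, 6.04 and 6.81 at 16 weeks, against 9.47, 9.70, 9.97, 9.55 and 8.37 at 4 weeks. The 4-week values were spread more widely than those of Col1a1, since mouse 5 was low, but the ages did not overlap. The change was -3.08 ± 0.26 at 16 weeks, with an adjusted p of 2.1e-07, and it was already -2.25 ± 0.26 at 8 weeks. The type V chains regulate the width of type I fibres from within them. Col5a2 was 5.10, 3.78, 4.51, 4.54 and 4.75 at 16 weeks, against 7.21, 8.31, 7.70, 6.92 and 6.70 at 4 weeks. This gave -2.83 ± 0.25, and both of its expressed probe sets fell by over 2 units, with differences of -3.18 and -2.48.

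**Figure D2:**
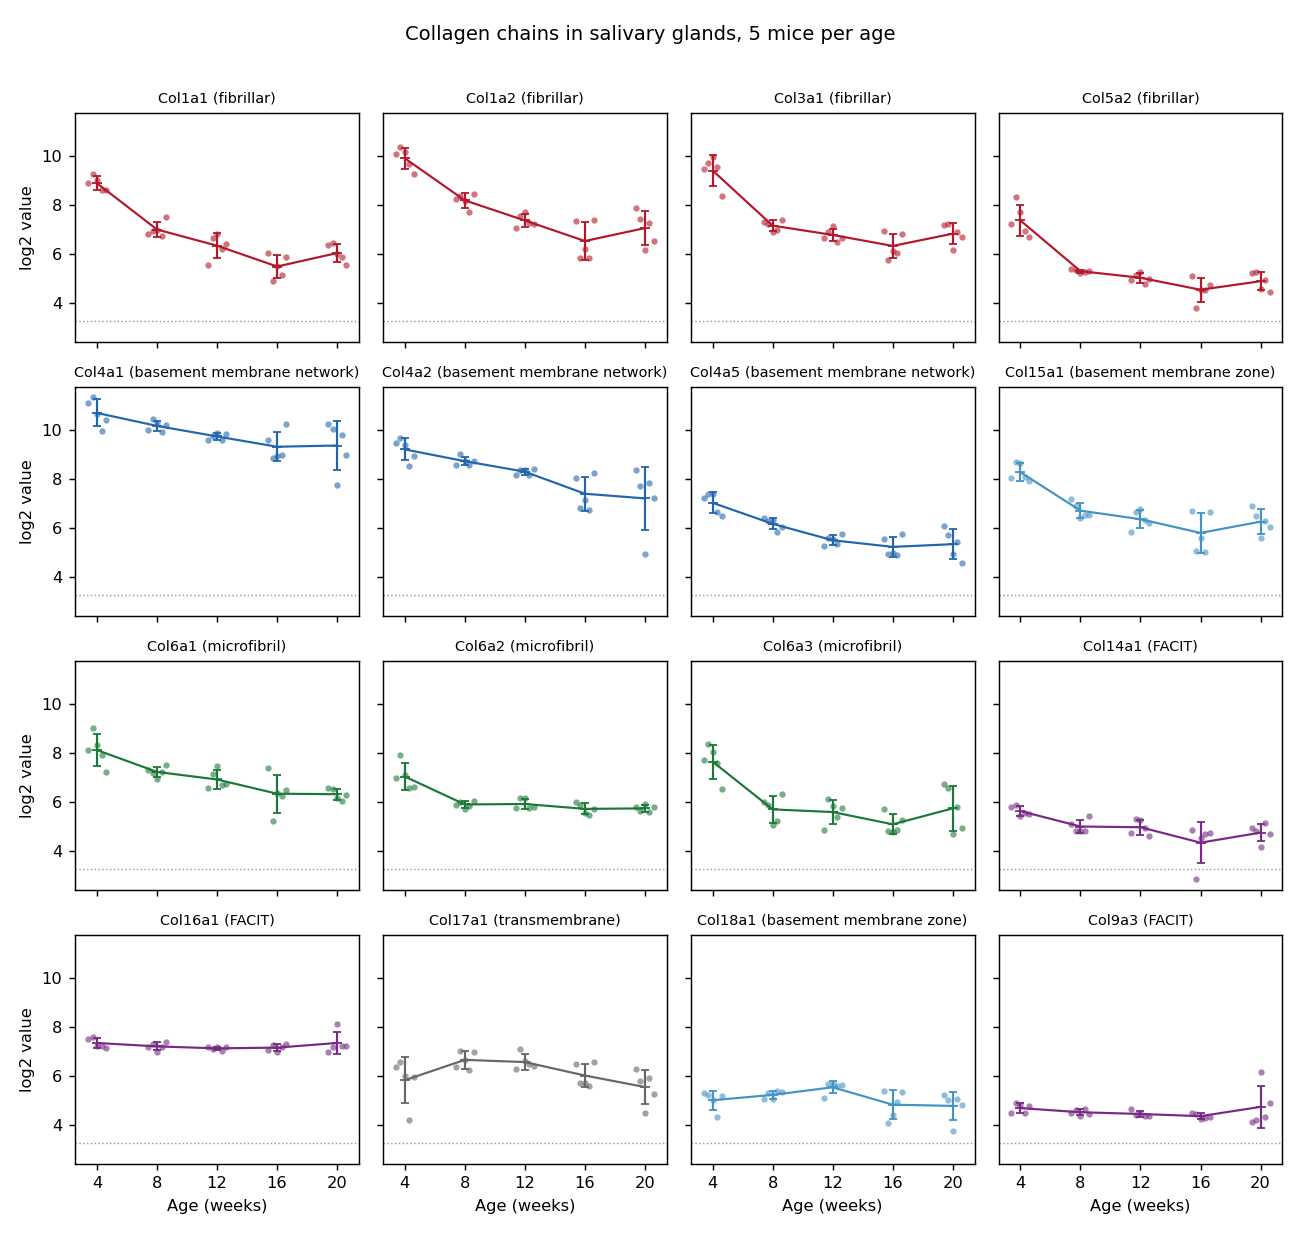
Log2 value of 16 collagen chains in each mouse (points) by age, with the mean and SD of the 5 mice as a line and bars; the dotted line is the 3.27 limit for an expressed probe set. The top row shows the fibrillar chains with Col1a1 at a mean of 5.49 at 16 weeks, against 8.89 at 4 weeks, and the bottom row shows chains that passed at no age, such as Col16a1 with means of 7.13 to 7.35.

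Col5a1 and Col5a3, the other type V chains, had most or all of their change by 8 weeks. Col5a1 was 5.52, 5.65, 5.27, 5.30 and 5.51 at 16 weeks, against 6.71, 6.61, 6.48, 6.20 and 6.55 at 4 weeks. The change was -0.97 at 8 weeks, -0.98 at 12 weeks, -1.06 at 16 weeks and -1.01 at 20 weeks, each ± 0.10, so the later ages lay within their error of each other. Col5a3, a less common type V chain, was 3.91, 3.94, 3.82, 3.88 and 3.83 at 8 weeks, against 5.31, 4.60, 5.86, 5.83 and 5.59 at 4 weeks. Its spread was 0.051 (SD) at 8 weeks and 0.52 at 4 weeks. From 8 weeks on, all 20 values lay between 3.80 and 4.13, close to the 3.27 limit, and the change was -1.56 ± 0.15 at 8 weeks.

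The fibrillar chains of cartilage were at or near that lower end. Col11a1, which nucleates cartilage fibres, was 3.19, 3.07, 3.22, 3.08 and 3.10 at 12 weeks, against 3.13, 5.73, 6.15, 4.76 and 3.19 at 4 weeks. Mice 2, 3 and 4 of the 4-week group were high and mice 1 and 5 were level with the later ages, so the ages overlapped. Its change was -1.46 ± 0.42 at 12 weeks with an adjusted p of 0.0375, and it missed the threshold at 8, 16 and 20 weeks with adjusted p of 0.0676, 0.0590 and 0.206. Without 4-week mouse 1 or 5, the 2 low mice, it passed at 8 weeks (0.00963 and 0.015), 16 weeks (0.00901 and 0.0109) and 20 weeks (0.0372 and 0.0479), and without 20-week mouse 3 at 8 and 16 weeks (0.0324 and 0.0312). The call at 12 weeks was lost without any 1 of 8 mice, namely 4-week mice 2, 3 and 4 and all 5 mice of 12 weeks, and the change was then -1.48 to -1.07, and it was lost with only the 2 ages compared (adjusted p = 0.0846). Col2a1, the main cartilage collagen, and Col11a2 were dim, with means of 2.80 to 2.95 and 2.08 to 2.25. Col24a1 stayed between means of 3.59 and 3.80. Col27a1, a fibrillar chain of cartilage, was 4.63, 4.07, 4.61, 4.60 and 4.62 at 12 weeks, against 4.63, 4.72, 4.67, 5.17 and 4.65 at 4 weeks. The highest 12-week mouse and the lowest 4-week mouse were thus level, and the change, its largest, was -0.26 ± 0.11 with an adjusted p of 0.164. All 7 measured markers of cartilage and bone (Acan, Matn1, Matn3, Comp, Cnmd, Ibsp and Sp7) passed at no age, and Acan, the cartilage proteoglycan, was at 1.82 at 4 weeks.

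No basement membrane network chain passed at 8 weeks with all 25 arrays, though Col4a5 came close. Col4a1 and Col4a2 encode the chains of the type IV network found in every basement membrane. Col4a2 was 8.03, 6.82, 7.14, 6.75 and 8.25 at 16 weeks, against 9.47, 9.67, 9.40, 8.55 and 8.94 at 4 weeks, with no overlap. Its change was -0.47 at 8 weeks, -0.91 at 12 weeks, -1.81 at 16 weeks and -2.0 at 20 weeks, each ± 0.44, and only the 16- and 20-week values passed, with adjusted p of 0.0222 and 0.0131. The 20-week call was lost with only the 2 ages compared (0.276), and the 12-week change passed in that fit (0.0232) and without 20-week mouse 3 (0.0243). At 20 weeks mouse 3, whose array stood apart, was at 4.92 and the other 4 were at 7.22 to 8.37. Without that mouse the 20-week change was -1.42 and still passed. The 16-week call was lost without any 1 of 4 mice (4-week mice 2 and 3 and 16-week mice 3 and 4), with changes of -1.76 to -1.65.

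Col4a1 was 9.60, 8.84, 8.94, 8.98 and 10.25 at 16 weeks, against 11.12, 11.34, 10.66, 9.96 and 10.42 at 4 weeks. Mouse 5 at 16 weeks lay above mouse 4 at 4 weeks, so these ages overlapped. The change of -1.37 ± 0.37 passed at 16 weeks with an adjusted p of 0.0394, and the change of -1.33 ± 0.37 at 20 weeks did not (adjusted p = 0.0536). The 16-week call was lost without any 1 of 8 mice (4-week mice 1, 2 and 3, 12-week mouse 5 and 16-week mice 1 to 4), with changes of -1.44 to -1.21 and adjusted p up to 0.115, and with only the 2 ages compared (0.104). The 20-week change passed without any 1 of 4 mice (4-week mouse 4, 16-week mouse 5 and 20-week mice 1 and 2), with adjusted p of 0.0293 to 0.0433. It also passed with the brightest probe set (0.0191), among expressed genes only (0.0328), after quantile normalization (0.000773) and with array weights (0.00753). It did not pass with all probe sets averaged, a trend and robust prior, a replicate block or only the 2 ages compared. Without 20-week mouse 3 it was -0.92, and the 12-week change of -0.96 passed (0.0208). The 2 expressed probe sets of Col4a1 differed by -1.85 and -0.90 between 16 and 4 weeks.

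Col4a5 belongs to another type IV network, which is known from the kidney filter and from basement membranes of epithelia. It was 5.56, 4.95, 4.97, 4.91 and 5.75 at 16 weeks, against 7.24, 7.39, 7.39, 6.65 and 6.48 at 4 weeks. No mouse of a later age reached the lowest 4-week mouse. The change was -0.86 at 8 weeks (adjusted p = 0.0692), -1.53 at 12 weeks, -1.80 at 16 weeks and -1.69 at 20 weeks, each ± 0.25, and the last 3 passed, the 20-week one not with only the 2 ages compared (0.079). The 8-week change passed without any 1 of 4 mice (4-week mouse 5 and 20-week mice 1, 3 and 5, adjusted p 0.0374 to 0.0432), among expressed genes only (0.0453), after quantile normalization (0.00536) and with array weights (0.0163). Its kidney partners Col4a3, which was dim, and Col4a4 had means of 2.66 to 2.76 and 3.27 to 3.46 and passed at no age. Col4a6 lay between means of 3.82 and 3.90.

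Of the microfibril chains, Col6a2 and Col6a3 fell from 8 weeks on and Col6a1 from 12 weeks on. Type VI collagen is built from Col6a1, Col6a2 and a long chain, usually Col6a3, and links cells to the fibres around them. Col6a3 was 5.73, 4.81, 4.76, 4.84 and 5.28 at 16 weeks, against 7.72, 8.36, 8.06, 7.58 and 6.54 at 4 weeks. Its change was -1.95 at 8 weeks, -2.06 at 12 weeks, -2.57 at 16 weeks and -1.91 at 20 weeks, each ± 0.39, and all passed. With only the 2 ages compared, the calls at 8 and 20 weeks were lost (adjusted p = 0.0518 and 0.183). At 20 weeks mice 1 and 2 were at 6.73 and 6.56, above the lowest 4-week mouse.

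Col6a2 was 5.99, 5.88, 5.54, 5.48 and 5.70 at 16 weeks, against 6.99, 7.91, 7.12, 6.59 and 6.61 at 4 weeks. Its change stayed between -1.13 and -1.33 at the 4 later ages, each ± 0.18, with no overlap with 4 weeks at any of them, and all passed. The 8- and 20-week calls were lost with only the 2 ages compared (adjusted p = 0.0621 and 0.0723). Col6a1 was 7.40, 5.21, 6.35, 6.23 and 6.50 at 16 weeks, against 8.12, 9.01, 8.31, 7.93 and 7.24 at 4 weeks. Mouse 1 at 16 weeks lay above mouse 5 at 4 weeks. The change was -0.89 at 8 weeks (adjusted p = 0.149), -1.20 at 12 weeks, -1.78 at 16 weeks and -1.80 at 20 weeks, each ± 0.31, of which the last 3 passed. The 12-week call, with an adjusted p of 0.0209, was lost without any 1 of 5 mice (4-week mice 2 and 3 and 12-week mice 1, 4 and 5), with changes of -1.16 to -0.98, and the 16-week call with only the 2 ages compared (0.09). Col6a4 and Col6a5, which can take the place of Col6a3 in other tissues, had means of 3.78 to 3.94 and 2.93 to 3.07 and passed at no age.

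In the basement membrane zone, Col15a1 fell and its closest relative was not seen to change. Col15a1 encodes a proteoglycan collagen that joins basement membranes to the fibres below. It was 6.68, 5.06, 5.58, 5.01 and 6.65 at 16 weeks, against 8.03, 8.69, 8.67, 8.07 and 7.93 at 4 weeks, without overlap. The change was -1.57 at 8 weeks, -1.92 at 12 weeks, -2.48 at 16 weeks and -2.02 at 20 weeks, each ± 0.31, and all passed. Col18a1 has the same build and is the source of endostatin, a fragment that acts on vessels. It was 5.11, 5.68, 5.68, 5.59 and 5.64 at 12 weeks, against 5.31, 5.22, 5.03, 4.33 and 5.18 at 4 weeks, a change of 0.53 ± 0.26 with an adjusted p of 0.264. Col7a1, the anchoring fibril chain of stratified epithelia, was 4.36, 4.37, 3.79, 3.73 and 3.81 at 16 weeks, against 3.59, 3.82, 3.83, 3.98 and 3.38 at 4 weeks, and its change was at most 0.31 ± 0.20 at any age.

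Of the FACIT chains, which sit on the surface of fibres, only Col14a1 fell by the call used here, and Col9a1 came close to it at 12 weeks. Col14a1 binds type I fibres and was 4.87, 2.84, 4.55, 4.70 and 4.74 at 16 weeks, against 5.79, 5.88, 5.42, 5.54 and 5.51 at 4 weeks. Mouse 2 was far below the rest at 16 weeks. The change was -1.29 ± 0.28 with an adjusted p of 0.0118, and without mouse 2 it was -0.91 with an adjusted p of 0.00535. With only the 2 ages compared the call was lost (0.142). At 8, 12 and 20 weeks it was -0.63, -0.66 and -0.87, with adjusted p of 0.299, 0.176 and 0.115, and without the same 16-week mouse these passed too (0.0462, 0.0190 and 0.00513).

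Col16a1, a FACIT chain of fibroblasts and smooth muscle, was 7.08, 7.26, 6.98, 7.17 and 7.30 at 16 weeks, against 7.52, 7.61, 7.21, 7.23 and 7.16 at 4 weeks. These ranges overlapped, and the change was -0.19 ± 0.15 with an adjusted p of 0.708. At 20 weeks its change was 0.00 ± 0.15, with mouse 3 at 8.12 and the others at 6.98 to 7.23. Col9a1, a type IX chain of cartilage fibres, was 3.83, 3.28, 3.73, 3.63 and 3.73 at 12 weeks, against 4.33, 4.78, 4.02, 5.71 and 4.83 at 4 weeks. The ages did not overlap, but the change of -1.10 ± 0.34 missed the threshold (adjusted p = 0.0518). It passed with only the 2 ages compared (0.0385), among expressed genes only (0.0328) and with the brightest probe set (0.0478). A trend and robust prior (0.0453) and array weights (0.000144) also made it pass. It did not pass with all probe sets averaged, after quantile normalization or with a replicate block. Without 4-week mouse 1 or 3 or 16-week mouse 2 it passed (0.0430, 0.0397 and 0.0412). It passed with an adjusted p of 0.00465 when 20-week mouse 3, whose own Col9a1 value was 5.83, was left out of the fit. Without that mouse the 8- and 20-week changes of Col9a1 passed too (0.0419 and 0.0436). Col9a3 was 4.65, 4.41, 4.49, 4.37 and 4.35 at 12 weeks, against 4.5, 4.89, 4.82, 4.48 and 4.76 at 4 weeks, and passed at no age. Col20a1 was 4.40, 4.63, 4.37, 4.35 and 4.51 at 16 weeks, against 4.38, 4.69, 4.40, 4.46 and 4.22 at 4 weeks, with means of 4.43 to 4.45 at all 5 ages. Col12a1 had means of 3.24 to 3.51, and Col9a2, Col19a1 and Col22a1 were dim.

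The transmembrane and short chains showed no fall that passed. Col17a1 encodes the hemidesmosome collagen that fastens basal epithelial cells to the basement membrane, and it is made by epithelium and not by fibroblasts. It was 6.37, 7.03, 6.65, 6.24 and 7.0 at 8 weeks, against 6.38, 6.59, 5.99, 4.20 and 5.97 at 4 weeks. The low 4-week mouse 4 widened the spread, and the change of 0.83 ± 0.37 did not pass (adjusted p = 0.305). At 12, 16 and 20 weeks it was 0.74, 0.19 and -0.27, each ± 0.37. Col23a1 was 3.31, 4.79, 3.46, 3.70 and 3.81 at 16 weeks, against 3.98, 3.98, 4.29, 3.63 and 3.68 at 4 weeks, and Col13a1, a chain of muscle and nerve junctions that was dim here, was 3.13, 3.25, 3.02, 3.12 and 3.12 against 3.14, 3.55, 3.64, 3.15 and 3.21. Both overlapped, and without 20-week mouse 3 the 12-week change of Col13a1, -0.24, passed (0.0349). Col25a1, a chain of neurons, was dim as well.

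Among the short chains, Col8a1 of vessel walls was 3.71, 3.49, 3.30, 3.44 and 3.37 at 16 weeks, against 3.44, 3.45, 3.44, 3.37 and 3.57 at 4 weeks. Its partner Col8a2 was 3.00, 3.10, 2.94, 2.99 and 2.99 at 16 weeks, against 3.00, 3.04, 3.04, 3.01 and 3.02 at 4 weeks. Col10a1, the chain of growth plate cartilage, was 2.50, 2.54, 2.47, 2.49 and 2.50 against 2.50, 2.54, 2.52, 2.51 and 2.52. The remaining chain, Col26a1, was 2.57, 2.73, 2.52, 2.56 and 2.56 at 16 weeks, against 2.60, 2.63, 2.69, 2.60 and 2.61 at 4 weeks. These last 3 were dim, and dim values have no useful order.

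The share of the fall that was present at 8 weeks is given as a description of the fitted changes. For Col5a3, Col5a1, Col6a2, Col6a3, Col3a1 and Col5a2, the change at 8 weeks was 101%, 91.7%, 86.5%, 75.9%, 73.0% and 72.9% of that at 16 weeks. Some of the probe sets behind these shares were near or below the 3.27 limit by 8 weeks, and the part of this in the shares was not tested. The dimmer probe sets of Col3a1 and Col5a2 averaged 3.57 and 3.06 at 8 weeks and gave 91.5% and 98%, and the brighter ones gave 57.3% and 53.5%. Col5a3 averaged 3.88. For Col5a1 the dimmer probe set, at 4.59 at 8 weeks, gave 100% and the brighter one 76.8%. For Col15a1, Col1a1 and Col1a2 it was 63.2%, 55.6% and 50.9%, and for Col6a1, Col14a1 and Col4a5 it was 49.8%, 49.2% and 47.8%. Col4a1 and Col4a2 had 38.7% and 26.2%. Between neighbouring ages no chain passed by limma from 8 weeks onward, and at an unadjusted p under 0.05 there were 3 chains lower at 12 than at 8 weeks, 4 lower at 16 than at 12 weeks and 2 higher at 20 than at 16 weeks. Of all genes 1.25%, 5.47% and 3.83% did so at this unadjusted threshold. After adjustment such steps passed for almost no gene: 0.0055% of all genes were higher at 12 than at 8 weeks, 0.0055% lower at 16 than at 12 weeks, and 0.0165% lower and 0.011% higher at 20 than at 16 weeks. Across the longer step from 8 weeks to 16 weeks, a comparison chosen after its values were seen, Col1a1 fell by 1.51 ± 0.24 with an adjusted p of 0.0262, 1 of 2 genes to do so among all 18194 (0.011%), where 0.0055% were higher. In that comparison 10 chains were lower at an unadjusted p under 0.05, as were 4.93% of all genes. From 8 to 20 weeks no chain passed, with Col1a1 at -0.96 ± 0.24 (adjusted p = 0.114), where 11 of all 18194 genes were lower and 4 higher. At an unadjusted p under 0.05, 7 chains were lower and 4 higher at 20 than at 8 weeks, as were 1287 and 806 of all genes. Of the 15 chains that fell, 13 had a more negative change at 16 weeks than at 20 weeks, a difference that passed for none of them.

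Pairs of chains were then compared inside each mouse, so that a change shared by both drops out. The 14 pairs at 4 ages gave 56 exact permutation tests of the log2 difference, two-sided, with 252 divisions of the 10 mice and a smallest possible p of 0.00794, which became 0.0234 after Benjamini-Hochberg adjustment. In all, 19 tests in 7 pairs passed, of which 18 tests in 6 pairs were between 2 expressed chains. The mean difference of the 2 chains of type I collagen was not seen to change: Col1a1 minus Col1a2 was -1.19, -1.04, -1.04 and -1.01 at 8, 12, 16 and 20 weeks, against -1.02 at 4 weeks, with exact p of 0.262 to 1.0. In single mice it ranged from -1.52 to -0.68 at 16 weeks and from -1.52 to -0.16 at 20 weeks, against -1.16 to -0.67 at 4 weeks. Col1a1 minus Col3a1 shifted by 0.36, 0.08, -0.32 and -0.27 and passed at no age.

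Col1a1 moved away from Col4a1 and Col6a1, the network chain and the microfibril chain paired with it. Col1a1 minus Col4a1 was -3.83 ± 0.37 at 16 weeks, against -1.81 ± 0.35 at 4 weeks (SD, n = 5), a shift of -2.03 with no overlap (exact p = 0.00794, adjusted 0.0234). The shift was -1.36 at 8 weeks and -1.60 at 12 weeks, which also passed, and -1.52 at 20 weeks, which did not (adjusted p = 0.0740). Col1a1 minus Col6a1 shifted by -1.0, -1.35, -1.62 and -1.05 at the 4 later ages, and all passed. Col6a3 was not paired with Col1a1, and at 8 weeks they changed by -1.95 and -1.89. Col4a1 minus Col6a1 shifted by 0.24 to 0.47 and passed at no age, with exact p of 0.198 to 0.349.

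Partner chains of the other types did not all move together. Col5a1 minus Col5a2 was 0.92 ± 0.56 at 16 weeks, against -0.86 ± 0.61 at 4 weeks, and its shifts of 1.10, 1.36, 1.77 and 1.47 passed at all 4 ages. Col6a1 minus Col6a3 shifted by 1.06 at 8 weeks and 0.86 at 12 weeks, which passed, and by 0.78 and 0.11 at 16 and 20 weeks, which did not. Col4a1 minus Col4a2 shifted by -0.06, -0.05, 0.43 and 0.67, and only the 20-week shift passed (exact p = 0.00794, adjusted 0.0234). Col4a5 minus Col4a6 shifted by -0.79, -1.47, -1.75 and -1.70 and passed at all ages, with Col4a6 level near 3.9. Since Col4a6 rested on 1 expressed probe set close to the 3.27 limit, these 4 tests mostly restate the change of Col4a5. The remaining test that passed, Col9a1 minus Col9a2 at 12 weeks, restates the change of Col9a1, since Col9a2 was dim. A shift between 2 genes also carries any difference in how far their probe sets respond, which was not tested.

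**Figure D3:**
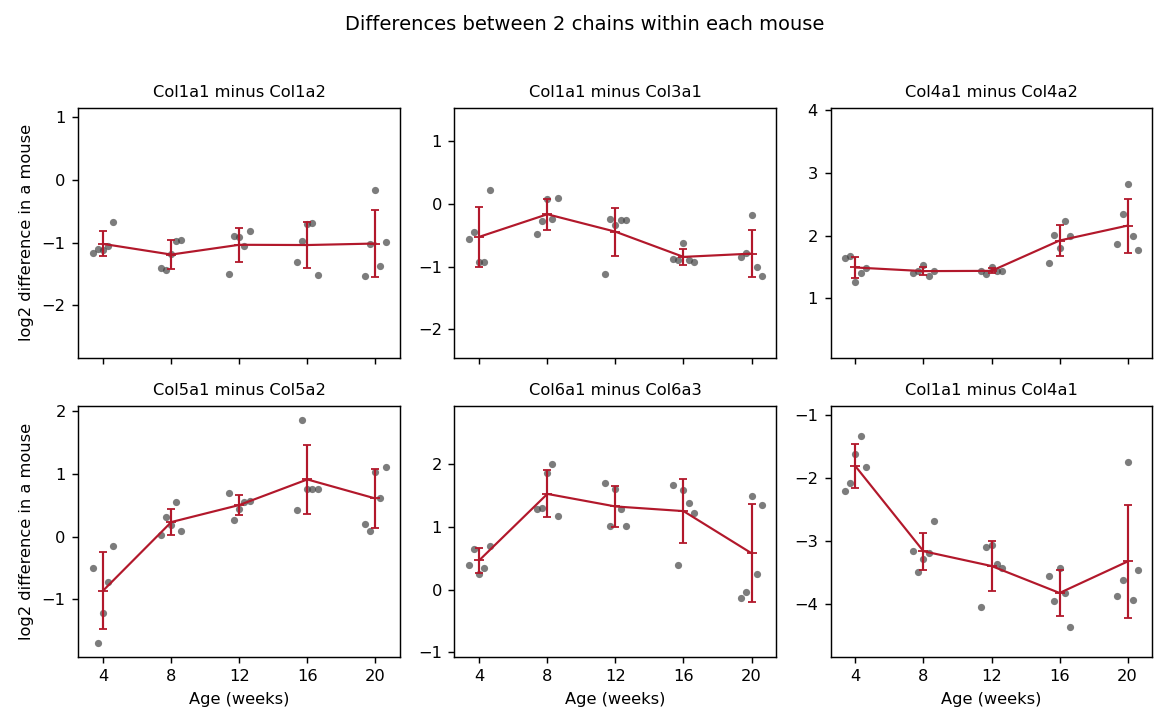
Log2 difference between 2 chains within each mouse (points) by age, with the mean and SD of the 5 mice; every panel spans 4 log2 units. The mean of Col1a1 minus Col1a2 stays between -1.19 and -1.01, with single mice from -1.52 to -0.16 at 20 weeks. The mean of Col1a1 minus Col4a1 drops to -3.83 at 16 weeks against -1.81 at 4 weeks, and that of Col5a1 minus Col5a2 is higher at 16 weeks (0.92) than at 4 weeks (-0.86).

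Several chains that fell lie beside each other in the genome, as do others that passed at no age. On RefSeq's GRCm38.p6 annotation Col3a1 (chr1:45311538-45349706) and Col5a2 (chr1:45374331-45503282) are 24624 bases apart, and they changed by -3.08 and -2.83 at 16 weeks. Col4a1 (chr8:11198423-11312889) and Col4a2 (chr8:11312805-11449287) run head to head with 85 shared bases, and changed by -1.37 and -1.81. Col4a5 (chrX:141475370-141689236) and Col4a6 (chrX:141165403-141474095) are also head to head, 1274 bases apart, and changed by -1.80 and -0.06. The mean of Col4a6 was 3.85, close to the 3.27 limit. Col6a1 and Col6a2 are 85161 bases apart on chromosome 10. Neighbours that passed at no age were Col4a3 and Col4a4 (114 shared bases), with changes of -0.03 and -0.19 at 16 weeks. The others were Col6a4 and Col6a5 (27854 bases apart, 0.09 and -0.02) and Col9a1 and Col19a1 (4944 bases apart, -0.78 and 0.01). Of these, Col4a3, Col6a5 and Col19a1 were dim. Col1a1 (chr11:94936224-94953042) and Col1a2 (chr6:4505618-4541543), whose mean difference was not seen to change with age, are on separate chromosomes.

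Promoter sequence is printed for 3 chains that fell (Col1a2, Col3a1 and Col4a5) and for Col17a1, which passed at no age, to set chains with and without a fall side by side. Each run is the 250 bases before a transcript start, from RefSeq on GRCm38.p6, 5′ to 3′ on the strand of the gene, and capitals mark CCAAT or its complement ATTGG, the site known to bind the factor NF-Y. The start used for Col4a5 lies inside the gene as given above, so the last 49 bases of its window are within the gene.
Col1a2, chr6:4505368-4505617, plus strand: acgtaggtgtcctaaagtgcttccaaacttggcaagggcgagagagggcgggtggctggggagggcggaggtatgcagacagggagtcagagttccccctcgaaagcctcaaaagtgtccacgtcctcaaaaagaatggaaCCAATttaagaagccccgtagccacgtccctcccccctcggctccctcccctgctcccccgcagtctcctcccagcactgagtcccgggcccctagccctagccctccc
Col3a1, chr1:45311288-45311537, plus strand: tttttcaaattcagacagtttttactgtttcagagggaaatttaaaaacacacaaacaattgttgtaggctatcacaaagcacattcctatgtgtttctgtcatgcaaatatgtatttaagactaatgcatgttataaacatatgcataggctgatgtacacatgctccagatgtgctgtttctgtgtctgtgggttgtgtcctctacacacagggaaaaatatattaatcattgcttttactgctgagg
Col4a5, chrX:141475169-141475418, plus strand: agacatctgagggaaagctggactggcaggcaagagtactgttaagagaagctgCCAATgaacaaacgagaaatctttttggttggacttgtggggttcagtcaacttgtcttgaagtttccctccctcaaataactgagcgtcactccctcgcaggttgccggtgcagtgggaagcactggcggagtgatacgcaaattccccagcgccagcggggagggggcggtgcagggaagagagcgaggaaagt
Col17a1, chr19:47692043-47692292, minus strand: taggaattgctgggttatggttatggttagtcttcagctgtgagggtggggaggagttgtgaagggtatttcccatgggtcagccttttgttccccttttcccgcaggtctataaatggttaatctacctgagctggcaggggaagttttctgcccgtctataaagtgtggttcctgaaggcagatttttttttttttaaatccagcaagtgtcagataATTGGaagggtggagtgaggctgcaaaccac

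In the Col1a2 window CCAAT begins at -109 from the start, and the window also has GGGCGG, the GC box, 2 times. The Col3a1 window has neither, and has TATAAA at -117. The Col4a5 window has CCAAT at -196 and 1 GC box, and the Col17a1 window has ATTGG at -31 and TATAAA 2 times. Searched on both strands, CCAAT was in a window of 6 of the 12 fallen chains with a RefSeq window and of 7 of the 21 other chains, against 33.8% of all 32851 windows of this length. GGGCGG was found for 7 of 12 fallen and 13 of 21 other chains, against 32.7% of windows, and TATAAA for 1 of 12 and 4 of 21, against 12.4%. These are matches of letters and not tested sites. Col1a1, Col5a2 and Col14a1 had no window in the table.

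A minority of the genes that make collagen fell at 16 and 20 weeks. Of 21 genes for collagen synthesis and folding, 0 fell at 8 and 12 weeks, 6 at 16 weeks and 2 at 20 weeks, and 0 were higher, with a median of -0.15 at 16 weeks. Of all genes 1.68% fell at 16 weeks and 1.52% at 20 weeks. Fkbp7, a prolyl isomerase of the endoplasmic reticulum, changed by -1.28 at 16 weeks with an adjusted p of 0.01. Crtap, part of the prolyl 3-hydroxylation complex, was 6.85, 6.01, 6.67, 6.63 and 6.67 at 16 weeks, against 6.94, 7.72, 7.98, 7.27 and 7.70 at 4 weeks, with no overlap and a change of -0.95 (adjusted p = 0.0204). Creb3l1, a membrane-bound factor that drives type I collagen genes in bone, changed by -0.95 with an adjusted p of 0.0164, and Plod1, a lysyl hydroxylase, by -0.90 with 0.0301. Serpinh1, the collagen chaperone HSP47, changed by -0.96 with 0.0394 at 16 weeks and by -0.45 with 0.541 at 20 weeks, and the channel gene Tmem38b by -0.38 with 0.0450 at 16 weeks. At 20 weeks Crtap and Creb3l1 were the 2 that passed. Of the 21 genes, 15 were expressed, and 15 did not pass at 16 weeks and 19 at 20 weeks. The expressed genes that did not pass changed by -0.52 (Mia3) to 0.44 (Colgalt1) at 16 weeks.

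Of 10 genes for trimming and cross-linking, 0, 1, 2 and 1 fell at 8, 12, 16 and 20 weeks, where 0.78%, 1.36%, 1.68% and 1.52% of all genes did. Pcolce, which speeds the trimming of procollagen, was 9.18, 7.79, 8.17, 8.26 and 8.68 at 16 weeks, against 9.40, 9.90, 9.37, 8.95 and 9.52 at 4 weeks. These ages overlapped in 1 mouse at 16 weeks, and the change was -1.01 (adjusted p = 0.0266). The cross-linking enzymes Lox and Loxl1 passed once each, Lox at 12 weeks with -0.94 and Loxl1 at 16 weeks with -1.43. Bmp1, the protease that trims procollagen, changed by 0.73 at 16 weeks, which missed the threshold (adjusted p = 0.350). None of the 9 collagen receptors passed, and Ddr1, a collagen-binding kinase of epithelium, changed by 0.30 and Itga1, an integrin chain, by -0.34 at 16 weeks. Only 4 of the 9 were expressed, and Itga2, Itga10, Ddr2, Gp6 and Mrc2 were dim.

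Of 11 genes for proteins that coat the fibres, 1 fell at 16 weeks and 1 at 20 weeks, where 1.68% and 1.52% of all genes did. These were Ogn at 16 weeks, with -0.63 (adjusted p = 0.00578), and Sparc at 20 weeks, with -1.45 (adjusted p = 0.0160). Bgn, the proteoglycan biglycan, averaged 9.70 ± 0.39 at 16 weeks and 9.48 ± 0.48 at 4 weeks (SD, n = 5 each), a change of 0.22. The related Dcn changed by -0.95 with an adjusted p of 0.462, Lum by -0.74 with 0.242 and Omd by -0.36 with 0.442.

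**Figure D4:**
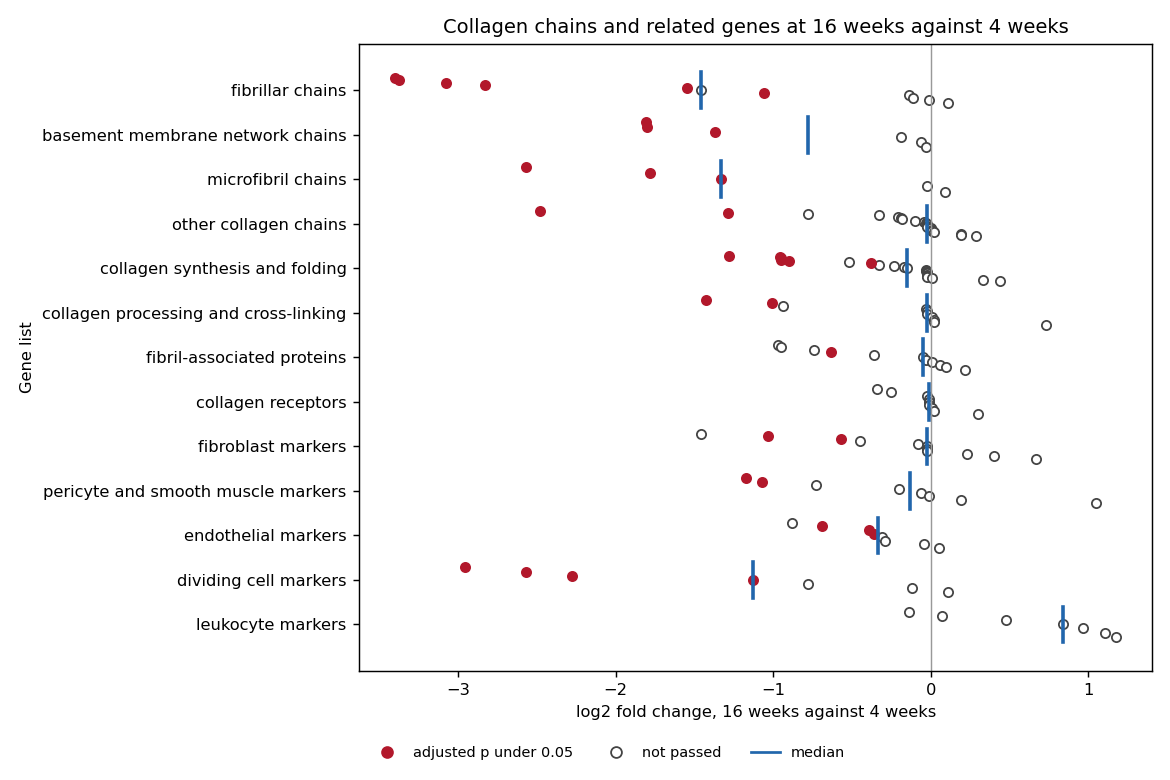
Log2 fold change at 16 weeks against 4 weeks of every measured gene (points) of the collagen classes and of related gene lists, with filled points for an adjusted p under 0.05 and a vertical bar for the median of each list. The fibrillar median is -1.46, against -0.15 for collagen synthesis and folding, -0.05 for fibril-associated proteins and -0.01 for collagen receptors. These medians include dim genes, since 9 of 11, 15 of 21, 8 of 11 and 4 of 9 genes of these lists were expressed.

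Markers of the cells that hold these chains moved in part. The counts of markers that fell stand beside 0.78%, 1.36%, 1.68% and 1.52% of all genes, in order of age. Of 11 fibroblast markers Fap, a protease of activated fibroblasts, fell at all 4 ages, with -1.03 at 16 weeks (adjusted p = 0.0142), and Pdgfra, the defining receptor, fell at 12 and 16 weeks, with -0.57 at 16 weeks (0.0165). Gsn changed by 0.40 and Cd34 by -1.46 at 16 weeks, and neither passed. The mean level of the fibroblast list over its genes ranged from 4.46 to 5.38 at 16 weeks, against 5.01 to 5.29 at 4 weeks, so the mice overlapped, and Clec3b and Tcf21 of this list were dim. Of 8 pericyte and smooth muscle markers, Pdgfrb and Rgs5 of pericytes fell at all 4 ages, by -1.17 (0.00212) and -1.07 (0.000232) at 16 weeks. The smooth muscle actin Acta2, also of myoepithelium, changed by 0.19 and the channel gene Abcc9 by -0.73, and neither passed. The list's mean ranged from 5.97 to 6.31 at 16 weeks, against 6.17 to 6.58 at 4 weeks, with Cspg4 and Des dim.

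Endothelial markers fell in 0, 3, 3 and 3 of 8 cases at the 4 later ages (0.78%, 1.36%, 1.68% and 1.52% of all genes), among them Kdr, a vessel growth factor receptor, with -0.69 (0.0236) at 16 weeks and Tie1 with -0.39 (0.0396). Cdh5 changed by -0.31 and Egfl7 by 0.05 at 16 weeks. The list's mean ranged from 3.63 to 3.80 at 16 weeks, against 3.91 to 4.29 at 4 weeks, and Pecam1, Cdh5 and Tie1 were dim. Dividing cell markers fell in 4 of 7 cases at every later age, against 0.78% to 1.68% of all genes. Mki67, the proliferation antigen, was 3.22, 3.35, 4.04, 5.36 and 3.09 at 16 weeks, against 5.97, 6.74, 6.51, 6.69 and 6.03 at 4 weeks, and at 8 weeks its change was already -2.98 with an adjusted p of 5.4e-06. Cdk1, Birc5 and Ccna2 changed by -2.96, -2.28 and -1.13 at 16 weeks. The list's mean ranged from 3.00 to 3.66 at 16 weeks, against 4.28 to 5.11 at 4 weeks, with Bub1 and Ccna2 dim. The part of these cells in the collagen values was not tested.

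Gland and immune markers were read in the same way. Of 7 acinar markers only Smgc, a mucin-like gene of the young submandibular gland, passed, with -4.02 (adjusted p = 0.0187) at 16 weeks and -3.68 (0.0361) at 20 weeks. The list's mean ranged from 9.41 to 11.85 at 16 weeks, against 11.71 to 12.93 at 4 weeks, and no member was dim. Aqp5, Bhlha15 and Prol1 changed by -0.43, -0.78 and -0.22 and did not pass. Of 6 duct markers Klk1 fell at 12, 16 and 20 weeks, with -0.41 (0.000278) at 16 weeks, and Cftr was higher at 8, 12 and 20 weeks, with 0.99, 0.89 and 1.28. Krt7 and Krt19 changed by 0.93 and 0.25 at 16 weeks. The duct list's mean ranged from 9.89 to 10.45 at 16 weeks, against 8.97 to 10.29 at 4 weeks.

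None of 7 leukocyte markers passed. Cd79a, Cd68, Itgax and Cd3e changed by 1.18, 0.97, 0.48 and -0.14 at 16 weeks, and the list's mean ranged from 4.01 to 6.93 at 16 weeks, against 4.12 to 5.39 at 4 weeks, with Cd3e and Itgax dim. None of 8 skeletal muscle markers passed, with Ckm, Myh1, Tnnt3, Mylpf and Pvalb dim and a mean of 2.74 to 3.01 at 16 weeks, against 2.83 to 2.95 at 4 weeks. The cartilage and bone list had a mean of 2.77 to 2.94 at 16 weeks, against 2.82 to 2.95 at 4 weeks, with Acan, Matn1, Comp, Cnmd and Ibsp dim.

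The order of the mice can also be read without a fit. All 5 mice lay below all 5 mice of 4 weeks for 10 chains at 8 weeks, 17 at 12 weeks, 12 at 16 weeks and 12 at 20 weeks. Of all genes, 4.05%, 21.1%, 2.16% and 1.35% did so. The share of all genes was thus highest at 12 weeks, the age of the highest count of chains. The 17 chains at 12 weeks included Col11a2 and Col26a1, which were dim. Of the 30 expressed chains it was 10, 15, 12 and 12, against 350, 842, 368 and 239 of 11696 expressed genes.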

How the data were processed

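Total RNA of 25 glands was hybridised to Affymetrix Mouse Genome 430 arrays, 1 per mouse. The deposited log2 values per probe set were made by the authors with RMA by the submitters' processing notes and with GCRMA by their methods, and no counts or scanner files were used here. The array medians of these log2 values were 3.18 to 3.64. Precision is limited by the 5 mice of each age.

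Of 45101 probe sets, 34958 had 1 symbol in the annotation, 932 had several and 9211 were not listed. Probe sets of a gene were averaged over those expressed, or over all where none was. Changes were fitted with limma 3.58.1 (R 4.3.3) over 5 age means with eBayes moderation and Benjamini-Hochberg adjustment over all 18194 genes, and called at an adjusted p under 0.05. B-statistics used orthogonal polynomials of degree 1 to 4 and a prior share of 0.01. Pairs of chains were tested with exact permutation tests in Python 3.11.15. The fit was tested on simulated data. Per-mouse values are given for the 3 chains of each class with the smallest adjusted p, for any chain called higher, for the 8 brightest expressed chains that passed at no age and for further chains that fell; from each other list the 4 genes of smallest adjusted p are named. Alternatives were all probe sets or the brightest one, expressed genes only, quantile normalization, array weights, a trend and robust prior, a replicate block, only the 2 ages compared, and each mouse left out. The members, classes and lists were chosen with earlier results of these data known. RefSeq lists 44 collagen genes of this form, and Col6a6 and Col28a1 were not analysed here.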

Additional observations from a re-analysis of the deposited data

Results flagged for a closer look

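Among the 29 chains described by mouse, 145 groups of 5 mice were searched for a mouse set far apart from the other 4 (Dixon's criterion), and 14 were found. Chance alone gives about 1 in 20 groups. At 20 weeks mouse 3 stood apart in 4 chains, at 5.83 for Col9a1, 8.12 for Col16a1 and 3.22 for Col26a1, all above the others, and at 3.77 for Col18a1, below them. The same array had the lowest correlation with its age and the largest 3′ minus 5′ difference. At 16 weeks mouse 2 was low for Col14a1 at 2.84 and high for Col26a1 at 2.73 and Col27a1 at 4.72. At 4 weeks mouse 4 was low for Col17a1 at 4.20 and Col18a1 at 4.33 and high for Col27a1 at 5.17. The other 4 were Col8a1 at 3.35 in mouse 3 and Col23a1 at 3.29 in mouse 5 at 8 weeks, and Col18a1 at 5.11 in mouse 1 and Col27a1 at 4.07 in mouse 2 at 12 weeks.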

How the results depend on the processing

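The number of chains that fell at 8, 12, 16 and 20 weeks, 9, 12, 14 and 12, was 16, 28, 21 and 24 with array weights, where 6.1%, 34.4%, 11.3% and 22.4% of all genes fell, and 15, 24, 23 and 24 without the 3 arrays of lowest correlation with their age (16-week mouse 2 and 20-week mice 3 and 5), a choice made after seeing the data, where 7.15%, 23.7%, 21.4% and 19.2% fell. Without 1 mouse the counts were 9 to 12, 10 to 16, 12 to 15 and 12 to 13, the B-statistic count 11 to 13 and the passing pair tests 18 to 21. Under the other settings the counts stayed within 1.5 times: 7, 15, 11 and 8 with only the 2 ages compared and 11, 14, 15 and 14 after quantile normalization. Pair tests that passed numbered 27 with all probe sets averaged and 20 with the brightest probe set or after quantile normalization. Mouse numbers did not pair the ages (correlations of same-numbered deviations -0.61 to 0.60, median -0.04), and the replicate block gave 9, 12, 14 and 12. Calls higher were seen for Col18a1 at 12 weeks (0.46 with array weights, 0.53 without the 3 arrays) and at 20 weeks for Col8a2 (0.12 with array weights or quantile normalization) and Col7a1 (0.37 with array weights). No called change turned its sign. Of uncalled ones, quantile normalization gave Col8a2 0.03 and 0.02 and Col10a1 0.02 and 0.02 at 8 and 12 weeks. At 20 weeks Col9a3 was -0.46 with array weights, -0.30 without 20-week mouse 3 (-0.30 to 0.21 without any 1 mouse) and -0.47 without the 3 arrays, and Col26a1 was -0.07, -0.05 and -0.08. Without the 3 arrays Col17a1 was 0.18 and Col18a1 0.08 at 20 weeks, and without 4-week mouse 4 Col17a1 was -0.21 at 16 weeks (-0.21 to 0.39 without any 1 mouse). With only the 2 ages compared, 10 of 47 calls missed the threshold: Col6a2 and Col6a3 at 8 and 20 weeks, Col11a1 at 12 weeks, Col4a1, Col6a1 and Col14a1 at 16 weeks, and Col4a2 and Col4a5 at 20 weeks. The cause was not tested.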
